A study of Mus musculus with 4 samples.

Results

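The genes described are Lhb, Fshb, Cga and Gnrhr, which encode the gonadotropin subunits and the receptor for gonadotropin-releasing hormone (GnRH) in the mouse pituitary gland. They were chosen by their symbols, not by any measured value, and are 4 of the 32285 genes counted. The data are single-nucleus RNA sequencing libraries of wild-type UM-HET3 mice, a genetically heterogeneous stock. Of the 4 libraries, those at 5 months carry the labels males and females, and so do those at 22 months, and values are given in the order 5-month males, 5-month females, then 22-month males, then 22-month females. Each library pooled nuclei from 3 snap-frozen pituitary glands and no group has a second library, so a group is 1 pool of animals and the spread between pools of a group is not known. The 10x Genomics nuclei isolation kit and 3' chemistry were used, in which each counted transcript carries a unique molecular identifier (UMI), with a target of 10000 nuclei.

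Luteinizing hormone (LH) and follicle-stimulating hormone (FSH) are each a pair of proteins: a common alpha subunit, made from Cga, and a beta subunit that gives the hormone its identity, made from Lhb or Fshb. Gonadotropes of the anterior pituitary make and secrete both hormones when pulses of GnRH from the hypothalamus reach the GnRH receptor, the product of Gnrhr, and LH and FSH act on the ovary and testis. Cga is also made by thyrotropes, where it pairs with the product of Tshb to form thyroid-stimulating hormone. Activin, made within the pituitary, raises Fshb, inhibin and follistatin oppose it, and sex steroids feed back on both hormones.

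The promoters of the 4 genes are shown as background and not as an account of the differences below. Each sequence is the 250 bases before the RefSeq start on the gene's own strand, in build GRCm38.p6, taken from RefSeq. Capitals mark TATAAA (the motif called a TATA box), CAAGGNCA (the binding site of Nr5a1, the nuclear receptor SF-1), GNGGGGGNG (the core of an Egr1 site) and TGANGTCA (resembling a cAMP response element), all searched on both strands. The Pitx-type site TAATCN, the AP-1 site TGANTCA and the box CCAAT were also searched and are not capitalised.
Lhb, chr7:45420696-45420945, plus strand: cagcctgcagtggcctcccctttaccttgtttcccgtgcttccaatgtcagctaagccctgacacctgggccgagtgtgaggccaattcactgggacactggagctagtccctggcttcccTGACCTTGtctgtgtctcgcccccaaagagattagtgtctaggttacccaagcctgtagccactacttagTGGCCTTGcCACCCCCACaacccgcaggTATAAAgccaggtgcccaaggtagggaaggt
Fshb, chr2:107059652-107059901, minus strand: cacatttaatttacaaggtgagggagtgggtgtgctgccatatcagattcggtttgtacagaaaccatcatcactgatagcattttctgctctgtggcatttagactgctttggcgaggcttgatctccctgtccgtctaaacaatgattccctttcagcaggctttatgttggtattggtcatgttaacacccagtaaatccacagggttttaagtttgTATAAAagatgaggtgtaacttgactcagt
Cga, chr4:34893529-34893778, plus strand: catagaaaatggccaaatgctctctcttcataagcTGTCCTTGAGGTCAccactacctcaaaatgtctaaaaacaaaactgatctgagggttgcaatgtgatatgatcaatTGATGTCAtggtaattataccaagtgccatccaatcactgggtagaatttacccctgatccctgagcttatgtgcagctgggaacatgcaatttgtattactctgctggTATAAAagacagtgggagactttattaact
Gnrhr, chr5:86197902-86198151, minus strand: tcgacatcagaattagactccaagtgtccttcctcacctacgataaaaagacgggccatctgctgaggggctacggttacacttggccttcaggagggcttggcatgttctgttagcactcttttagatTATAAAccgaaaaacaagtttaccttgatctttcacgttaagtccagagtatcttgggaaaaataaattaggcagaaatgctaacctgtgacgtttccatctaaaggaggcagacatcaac

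The Lhb window held a pair of Nr5a1-type sites, beginning at -129 and -59 from the start, an Egr1-type match at -50 and a TATA box at -31. Fshb and Cga each had a TATA box at -30, and Fshb an AP-1 match at -9. Cga had cAMP-response-like matches at -209 and -139, the first of which overlapped an Nr5a1-type match at -215. In Gnrhr the only capitalised match was a TATAAA at -121. Pitx-type matches lay at -101 in Lhb and at -125 in Gnrhr, where it overlapped the TATAAA, and CCAAT at -209 and -168 in Lhb, -75 in Fshb and -109 in Cga. Of 32851 windows of 250 bases in the same RefSeq table, 12.4% held TATAAA, 5.53% the Nr5a1-type site, 17% the Egr1 core, 7.49% the cAMP-response-like motif, 33.8% CCAAT, 19.8% the Pitx-type site and 6.75% the AP-1 site. A match is a run of letters and not an occupied site, and these matches were not used in any test. In GENCODE M21 the genes lie on mm10 at chr7:45420820-45421897 (Lhb, ENSMUSG00000100916, plus strand), chr2:107056140-107059656 (Fshb, ENSMUSG00000027120, minus strand), chr4:34893779-34907370 (Cga, ENSMUSG00000028298, plus strand) and chr5:86180754-86197901 (Gnrhr, ENSMUSG00000029255, minus strand). GENCODE starts Lhb and Fshb inside the windows printed above, Fshb by a few bases. The Lhb matches from -101 to -31 lie within its GENCODE gene and are upstream only of the RefSeq start. The last 138 bases of Lhb overlap Ruvbl2 on the other strand, and the sources used here do not state the strand setting of the counting. Ruvbl2 had 26, 12, 29 and 19 UMIs in gonadotrope-like nuclei.

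Transcripts of the sex chromosomes went against the label of 2 libraries. Xist, the RNA of the inactive X chromosome, was counted in 0.112%, 0.212%, 97.3% and 85.8% of nuclei, and at least 1 of 4 Y-linked genes in 85.6%, 84.3%, 0.203% and 0.304%. The library labelled 5-month females thus carried Y-linked transcripts and the library labelled 22-month males carried Xist. Groups were kept as labelled. The comparison of labelled ages sets the libraries with Y-linked transcripts against those with Xist, and age and sex chromosomes cannot be told apart in it. The libraries held 33328821 to 65773807 UMIs, and 7156, 6597, 10355 and 7235 nuclei were kept after filtering, with a median of 3460 to 4745 UMIs. Pairs of libraries shared 14 to 43 barcodes, at most 0.554% of a library.

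Nuclei were clustered without the hormone genes or Gnrhr, and clusters were named from markers that did not include the 4 genes. Gonadotrope-like nuclei numbered 314, 267, 301 and 172, which is 4.39% (95% Clopper-Pearson interval 3.93 to 4.89), 4.05% (3.58 to 4.55), 2.91% (2.59 to 3.25) and 2.38% (2.04 to 2.76) of the nuclei kept. Intervals here and below cover counting error only. The class was a smaller share of both libraries labelled 22-month than of either library labelled 5-month with intervals that did not overlap. All 7 markers of the class were counted in every library. Their summed level was 2122, 2523, 2383 and 2057 CPM (UMIs of the gene per 1000000 UMIs of the class) in these nuclei and 40.4 to 58.0 CPM in somatotrope-like and lactotrope-like nuclei. Single markers differed by labelled age: Foxp2 stood at 1023, 1169, 1688 and 1386 CPM, and Spp1 at 169, 334, 73.0 and 112, Gata2 at 191, 292, 109 and 121, Tgfbr3l at 493, 494, 295 and 214 and Foxl2 at 148, 115, 105 and 88.4 CPM. Of the markers, Cyp11a1, a steroidogenic enzyme, was near 0 with 2, 2, 3 and 10 UMIs. The class came from a pair of clusters that divided by labelled age: cluster 8 held 312 and 266 nuclei of the libraries labelled 5-month, and cluster 19 held 299 and 171 of those labelled 22-month. Depth differed between them, with a median of 4153.5, 4912, 6284 and 8050 UMIs per gonadotrope-like nucleus. RNA of other hormone cells was present. Of the 5 somatotrope markers 4 or 5 were counted, at a summed level of 33524, 20127, 16734 and 7302 CPM, nearly all of it growth hormone (Gh), and of the 5 lactotrope markers 4 or 5, at 6504, 3064, 34667 and 14480 CPM, nearly all of it prolactin (Prl). The same sums were 159367, 100200, 54811 and 39771 CPM and 19405, 11520, 80619 and 46612 CPM in somatotrope-like and lactotrope-like nuclei together. Of the 6 thyrotrope markers Sox14 was at 0 in every library and the sum was 81.6 to 103 CPM, below that in somatotrope-like and lactotrope-like nuclei (126 to 196 CPM). The part of depth and of this other RNA in the results below was not tested.

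Gnrhr marked the class most closely. Gonadotrope-like nuclei held 95.8%, 94.5%, 89.1% and 94.4% of its UMIs over all nuclei kept. For Fshb the same share was 84.8%, 82.4%, 64.6% and 76.6%, for Lhb 64.0%, 57.3%, 19.5% and 37.1%, and for Cga 48.6%, 44.3%, 26.5% and 28.3%. Lactotrope-like nuclei, at far lower levels per UMI, held 31.4% and 23.6% of Lhb UMIs in the libraries labelled 22-month, in the first of these more than the gonadotrope-like nuclei, and nuclei in clusters that could not be named held 0.610%, 7.17%, 11.4% and 5.71% of Lhb UMIs. In somatotrope-like and lactotrope-like nuclei, which make growth hormone and prolactin and should lack them, Lhb stood at 2.12, 4.14, 2.74 and 1.81 CPM and Fshb at 37.3, 40.5, 11.4 and 11.1 CPM, a level taken as free RNA. Gnrhr stood at 1.92, 1.80, 4.78 and 2.76 CPM there and Cga at 1026, 1071, 1107 and 816 CPM.

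**Figure D1:**
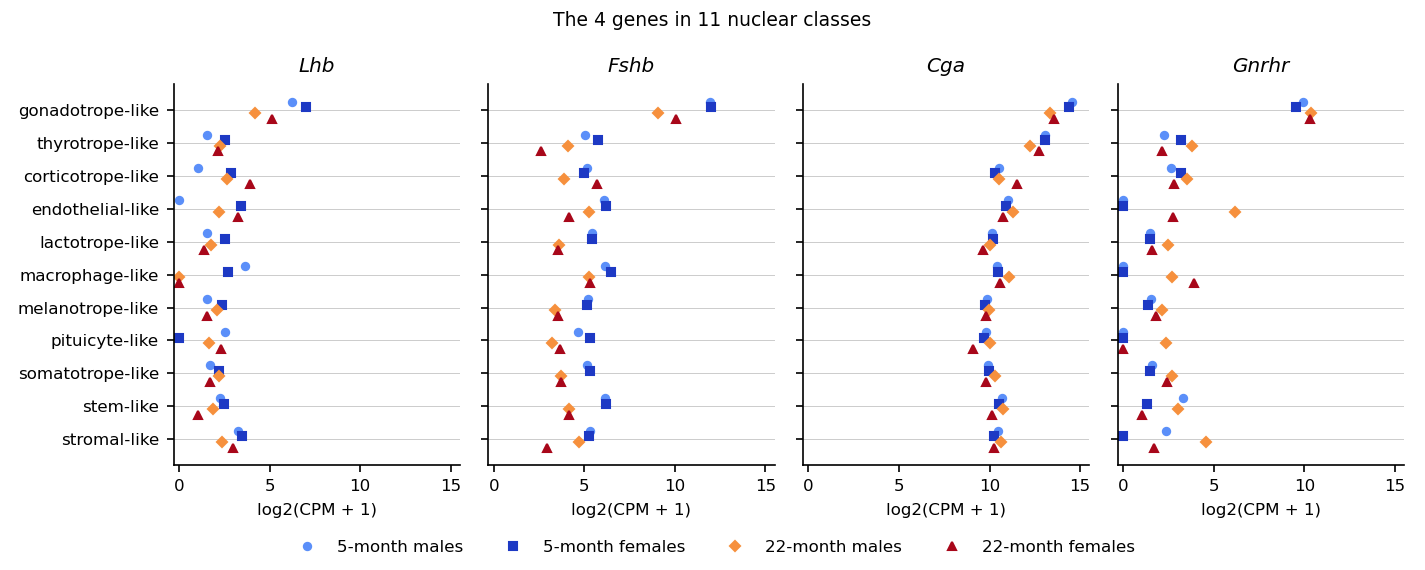
Level of each gene as log2(CPM + 1) of UMIs summed over the nuclei of a class, for the 11 classes that had 30 nuclei or more in each library; each point is 1 labelled library. Of these classes, gonadotrope-like nuclei are highest for each gene in every library, and Cga is second highest in thyrotrope-like nuclei, at 4810 to 8479 CPM.

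Levels of the beta subunits in gonadotrope-like nuclei were lower in both libraries labelled 22-month. Lhb gave 105, 176, 36 and 52 UMIs, or 75.2 CPM (95% exact Poisson interval 61.5 to 91.0), 125 (108 to 145), 17.3 (12.1 to 23.9) and 33.8 (25.3 to 44.3). The library labelled 22-month males was the lowest. The ratio of CPM at 22 over 5 months was 0.230 (0.153 to 0.339) by the labelled males' libraries and 0.269 (0.194 to 0.369) by the labelled females'. In edgeR's quasi-likelihood fit with labelled sex as a term, Lhb fell by 1.86 ± 0.22 (SE) on the log2 scale at labelled 22 months (Benjamini-Hochberg adjusted p = 0.000108).

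Fshb gave 5441, 5807, 1097 and 1644 UMIs in gonadotrope-like nuclei. These are levels of 3897 CPM (3794 to 4002), 4140 (4034 to 4248), 527 (496 to 559) and 1069 (1018 to 1122). Both libraries labelled 5-month stood close together and far above the rest, and the library labelled 22-month females had 2.03 times (1.88 to 2.19) the level of the one labelled 22-month males. The ratio of 22 over 5 months was 0.135 (0.127 to 0.144) for the libraries labelled males and 0.258 (0.244 to 0.273) for those labelled females. Fshb fell by 2.29 ± 0.25 on the log2 scale in the same edgeR fit (adjusted p = 4.67e-05).

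Cga, the common alpha subunit, was also lower at labelled 22 months, by a smaller factor. It gave 33016, 29826, 21908 and 18433 UMIs in gonadotrope-like nuclei, or 23645 CPM (23391 to 23902), 21264 (21024 to 21507), 10521 (10382 to 10661) and 11986 (11814 to 12160). The groups did not overlap, with ratios of 0.445 (0.437 to 0.453) for labelled males and 0.564 (0.553 to 0.574) for labelled females. With the free-RNA level of each library subtracted, Cga stood at 22620, 20194, 9414 and 11170 CPM. The fitted fall was 0.87 ± 0.22 on the log2 scale (edgeR, adjusted p = 0.0244).

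Gnrhr, the receptor, went the other way. Its 1361, 1032, 2793 and 1949 UMIs were 975 CPM (924 to 1028), 736 (692 to 782), 1341 (1292 to 1392) and 1267 (1212 to 1325) of gonadotrope-like nuclei. The ratios of 22 over 5 months were 1.38 (1.29 to 1.47) for the labelled males and 1.72 (1.60 to 1.86) for the labelled females. Gnrhr rose by 0.75 ± 0.19 on the log2 scale (edgeR, adjusted p = 0.0266).

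**Figure D2:**
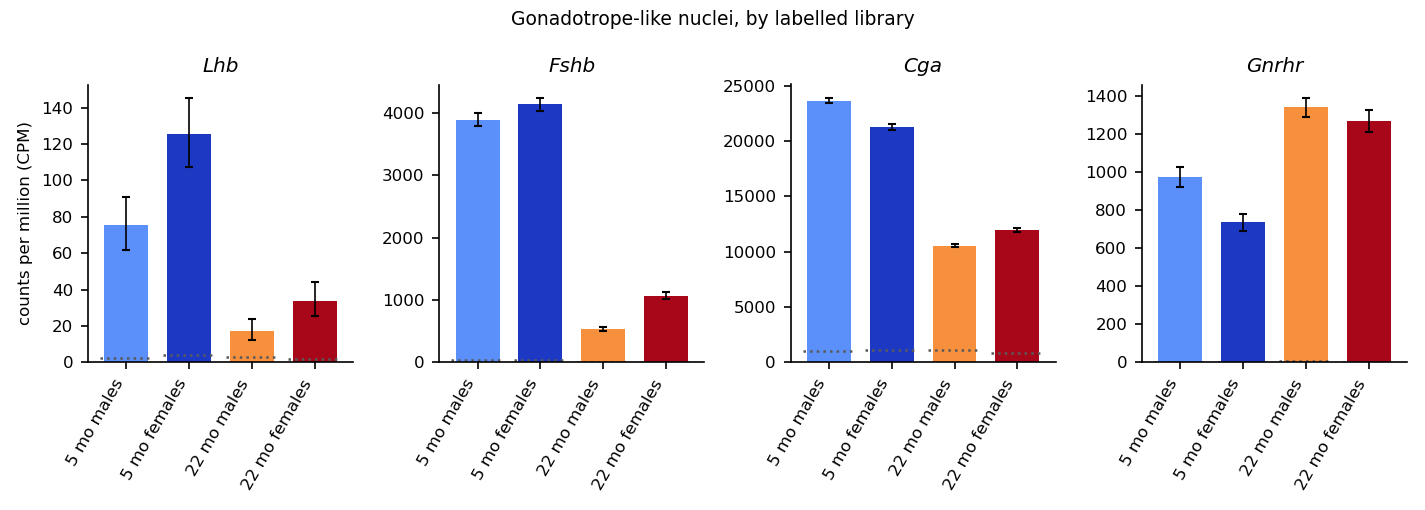
Level in CPM of each gene in gonadotrope-like nuclei of the 4 labelled libraries; bars are 1 library each, error bars 95% exact Poisson intervals, and dotted lines the level in somatotrope-like and lactotrope-like nuclei of the same library. Each gene has its own axis. Lhb, Fshb and Cga are lower and Gnrhr is higher in both libraries labelled 22-month.

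All 4 genes passed in this comparison, in which 9.71% of the 12987 genes tested passed, 6.33% of them higher and 3.38% lower at labelled 22 months. The median fold of all genes tested was -0.02 on the log2 scale. In CPM the libraries also separated by labelled age for all 4 genes. The share of all genes tested that separate in this way was not counted. The edgeR calls rest on few libraries. With 3 libraries the fit had no labelled sex term and 1 side was a single library, assumed to vary like the others. Without the library labelled 5-month males the adjusted p was 0.0938 for Lhb and 0.168 for Fshb, and without the library labelled 5-month females 0.291 and 0.190. Both still passed without either library labelled 22-month, at 0.0160 and 0.00217 without the males and 4.35e-05 and 2.10e-06 without the females. Cga and Gnrhr passed in none of the 4 fits that left out 1 library, with adjusted p from 0.101 to 0.628 for Cga and from 0.111 to 0.577 for Gnrhr. They also did not pass with called doublets kept (0.0690 and 0.0636), and Gnrhr did not in DESeq2 (0.112). The direction of all 4 genes was the same in every one of these fits. In the pair of libraries whose sex-chromosome transcripts match their labels, 22-month females over 5-month males, the ratios were 0.450 (0.316 to 0.633) for Lhb, 0.274 (0.259 to 0.290) for Fshb, 0.507 (0.498 to 0.516) for Cga and 1.30 (1.21 to 1.39) for Gnrhr, with no test. Age and sex differ together in this pair, so their parts in these ratios cannot be told apart.

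By labelled sex none of the 4 genes passed in edgeR's fit, in which 1.74% of the genes tested did, 1.16% higher and 0.585% lower in the libraries labelled females. Both libraries labelled 5-month carried Y-linked transcripts and both labelled 22-month carried Xist. At neither labelled age does labelled sex therefore set libraries of different sex-chromosome transcripts against each other. Whether only the sex label is wrong in the libraries labelled 5-month females and 22-month males, or these were exchanged, is not known. If exchanged, labelled sex would set ages against each other, and labelled age would set sexes against each other. Lhb was 0.86 ± 0.22 higher on the log2 scale in the libraries labelled females (adjusted p = 0.0760) and Fshb 0.59 ± 0.24 higher (0.348). Cga differed by 0.06 ± 0.22 (0.962) and Gnrhr by -0.20 ± 0.19 (0.794). Before adjustment 2 of the 4 genes, Lhb and Fshb, were under 0.05 in edgeR and in DESeq2, where none passed after adjustment either. The Lhb level was higher in the library labelled females at both labelled ages, 1.67 times (1.30 to 2.15) at labelled 5 months and 1.96 times (1.25 to 3.08) at labelled 22 months. With DESeq2's size factors in the edgeR fit Lhb passed (adjusted p = 0.0360).

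**Figure D3:**
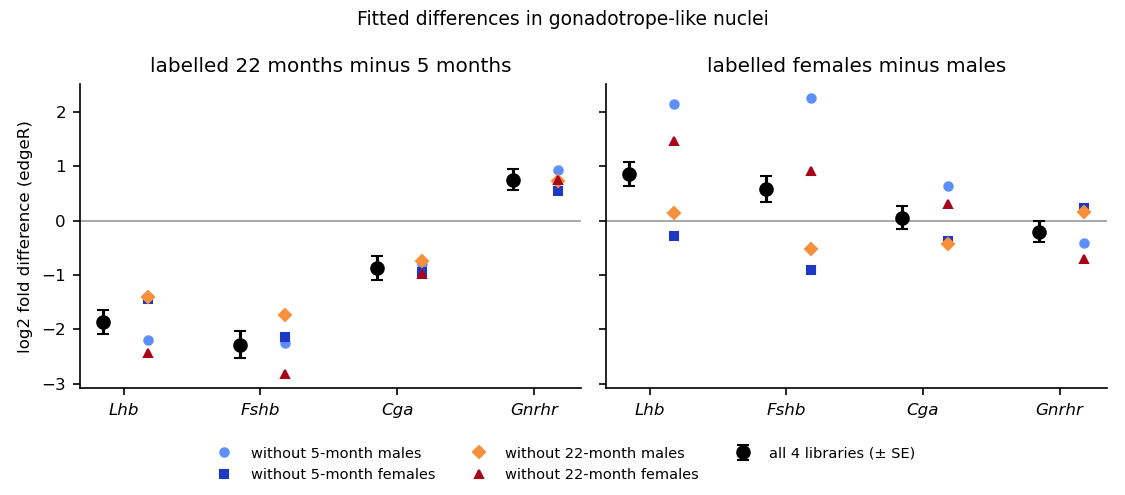
Log2 fold difference of each gene in gonadotrope-like nuclei, from edgeR's fit to all 4 libraries (black, ± SE) and from fits that leave out 1 library and have no second term (coloured). By labelled age Lhb, Fshb and Cga stay below 0 and Gnrhr above 0 in every fit. By labelled sex the sign of each gene differs between the coloured fits, in which labelled age is not balanced between the sides.

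The nuclei of a library differed widely in Fshb. In the libraries labelled 5-month the median gonadotrope-like nucleus held 13 and 20 Fshb UMIs, and in those labelled 22-month 1 and 5, although the latter nuclei were sequenced more deeply. No Fshb UMI was counted in 9.55%, 4.12%, 41.9% and 31.4% of the nuclei. At least 10 UMIs were counted in 57.3%, 73.8%, 13.6% and 36.0%. Nuclei with many Fshb UMIs were thus a minority at labelled 22 months, and the 10% of nuclei with the most held 50.8% and 45.0% of all Fshb UMIs there, against 28.5% and 25.6% at labelled 5 months. They were almost all of this class: of all nuclei with at least 10 Fshb UMIs, 180 of 180, 197 of 201, 41 of 41 and 62 of 63 were gonadotrope-like.

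Gnrhr per nucleus ran the other way by labelled age. Its median was 3, 3, 8 and 8 UMIs per gonadotrope-like nucleus, and it was at 0 in 9.87%, 17.2%, 3.32% and 4.65%. At least 10 UMIs were found in 10.2%, 7.49%, 37.5% and 41.9%. Thinned to 2000 UMIs per nucleus, which removes the difference in depth, Gnrhr was detected in 76.6% (71.4 to 81.3), 59.5% (53.3 to 65.5), 84.1% (79.5 to 88.1) and 74.3% (67.0 to 80.6). The library labelled 22-month females then overlapped the one labelled 5-month males. Cga had at least 1 UMI in every gonadotrope-like nucleus, with a median of 93.5, 96, 63 and 96.

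**Figure D4:**
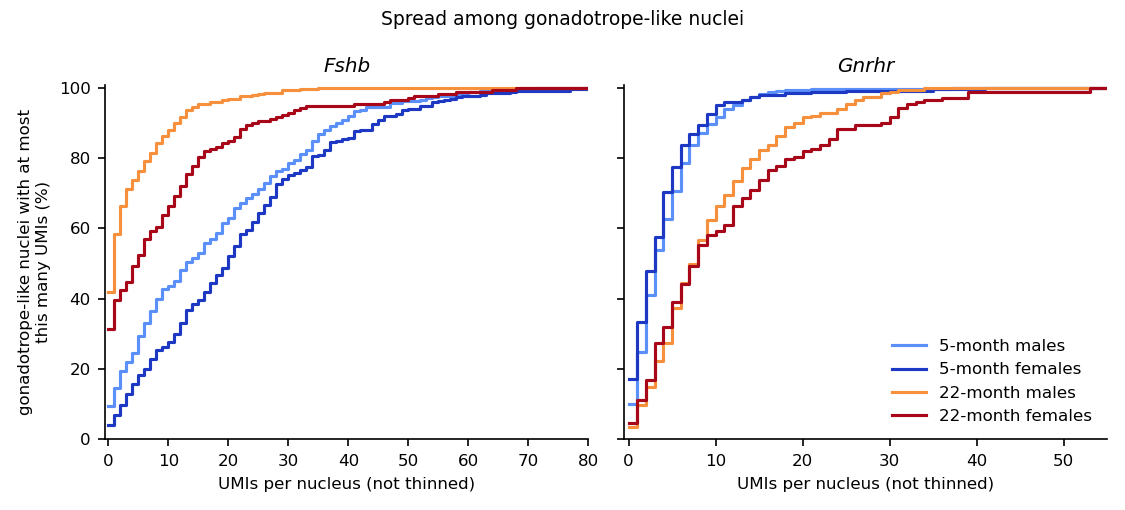
Share of gonadotrope-like nuclei (vertical axis, percent) with at most the number of UMIs on the horizontal axis, for Fshb and Gnrhr; each line is 1 labelled library, not thinned. For Fshb the 22-month lines start at 41.9% and 31.4% of nuclei with none, and for Gnrhr they lie to the right of the 5-month lines over most of the range.

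Lhb and Fshb were next counted together in each nucleus, since a gonadotrope can make both hormones. Nuclei were thinned to 2000 UMIs (15, 5, 5 and 1 shallower nuclei left out) and a gene was counted as detected from 1 UMI. Lhb and Fshb were both detected in 41 of 299 nuclei, 13.7% (10.0 to 18.1), 62 of 262, 23.7% (18.7 to 29.3), 3 of 296, 1.01% (0.210 to 2.93), and 3 of 171, 1.75% (0.363 to 5.04). Both libraries labelled 5-month were above both labelled 22-month, with intervals that did not overlap at this depth and detection limit. Fshb without Lhb was found in 73.2%, 69.1%, 38.5% and 52.6% of nuclei and neither gene in 12%, 6.49%, 57.4% and 42.7%. The first was the most common state in all libraries but that labelled 22-month males, where it was neither gene. Lhb without Fshb was rare in every library, with 3, 2, 9 and 5 nuclei.

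**Figure D5:**
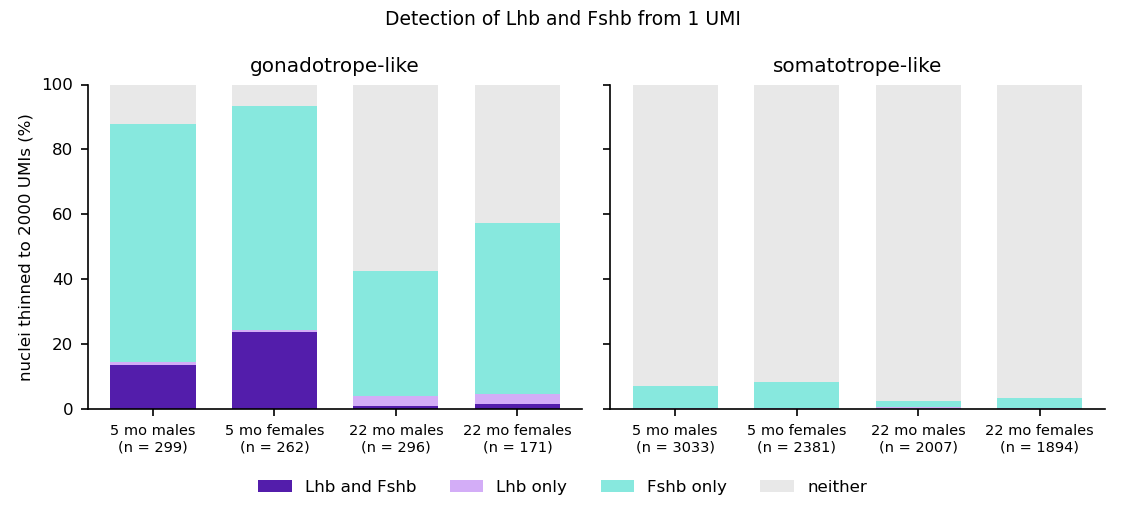
Share of nuclei with both genes, 1 or neither, after thinning to 2000 UMIs, in gonadotrope-like nuclei and, for the background of free RNA, in somatotrope-like nuclei; each bar is 1 labelled library and n its nuclei. The share with both is 13.7% and 23.7% in the libraries labelled 5-month and 1.01% and 1.75% in those labelled 22-month.

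Among nuclei with Lhb, Fshb was also detected in 93.2% (81.3 to 98.6), 96.9% (89.2 to 99.6), 25% (5.49 to 57.2) and 37.5% (8.52 to 75.5). Among nuclei without Lhb the shares were 85.9% (81.0 to 89.9), 91.4% (86.6 to 94.9), 40.1% (34.4 to 46.1) and 55.2% (47.2 to 63.0). Fshb was near its ceiling in the libraries labelled 5-month and only 12 and 8 nuclei had Lhb in those labelled 22-month, so these shares say little on whether the genes go together. The mean of Fshb per thinned nucleus was 7.95, 10.9, 0.417 and 2.50 UMIs with Lhb and 7.53, 7.70, 1.01 and 2.0 UMIs without, higher with Lhb in 3 of 4 libraries, with no test. Detection of Lhb was 14.7%, 24.4%, 4.05% and 4.68% in gonadotrope-like nuclei against 0.462%, 0.546%, 0.698% and 0.528% in somatotrope-like nuclei. For Fshb it was 87.0%, 92.7%, 39.5% and 54.4% against 6.86%, 7.81%, 1.94% and 2.90%. The median somatotrope-like nucleus had 3700, 3894, 3908 and 4433 UMIs before thinning. Without thinning both genes were detected in 83, 122, 21 and 31 gonadotrope-like nuclei, or 26.4%, 45.7%, 6.98% and 18%, so the shares depend on depth while the order by labelled age does not. Unthinned, the intervals of the libraries labelled 5-month males (21.6 to 31.7) and 22-month females (12.6 to 24.6) overlapped. All 4 genes were detected together in 31, 33, 3 and 3 thinned nuclei.

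The balance of the beta subunits can be compared between libraries without any scaling, as a ratio of UMIs that is not a ratio of protein. There were 51.8 Fshb UMIs per Lhb UMI (95% exact binomial interval 42.7 to 63.5) in the library labelled 5-month males, 33 (28.4 to 38.6) in 5-month females, 30.5 (21.9 to 43.7) in 22-month males and 31.6 (24.0 to 42.5) in 22-month females. The library labelled 5-month males was the highest, and its interval overlapped only that of 22-month males. Among the other 3 the ratio did not differ beyond counting error, although the level of each subunit did.

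Transcripts of immediate early genes, which cells switch on within minutes of a stimulus or of dissociation, set 1 library apart. Summed over Fos, Jun, Egr1, Atf3, Nr4a1 and Dusp1 they stood at 651, 28.5, 21.6 and 36.4 CPM of gonadotrope-like nuclei. At the finer clustering 192 nuclei of the library labelled 5-month males formed a cluster with 1021 CPM of these genes, apart from 117 nuclei with 39.2 CPM. In the first set Lhb stood at 81.5 CPM, Fshb at 3835, Cga at 27478 and Gnrhr at 875. In the second they stood at 64.0, 4068, 17277 and 1047, and in both sets Lhb, Fshb and Cga were above, and Gnrhr below, both libraries labelled 22-month. A further 13 nuclei of this library clustered with those labelled 22-month and stood at 54.2 CPM of Lhb, 2385 of Fshb, 13516 of Cga and 1698 of Gnrhr.

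Other genes of the pathway were taken from lists chosen with earlier results of these data known. Of the glycoprotein hormone subunits 4 of 6 could be tested, the 3 gonadotropin genes and Tshb, and 3 fell, with a median of -1.37. Tshb stood at 82.4, 92.0, 54.3 and 56.6 CPM and did not pass (-0.52, edgeR, adjusted p = 0.120). In somatotrope-like and lactotrope-like nuclei, where free RNA was read, it stood higher, at 95.8, 115, 79.1 and 72.1 CPM. Its counts in gonadotrope-like nuclei may therefore be free RNA, which was not tested. Of 22 genes tested from the list of GnRH receptor signalling, 4 rose and 4 fell at labelled 22 months, with a median log2 fold of 0.06 (all genes, -0.02). Here and in the lists below the counts stand beside 6.33% of all genes tested that rose and 3.38% that fell. Gnaq, the G protein that couples the receptor to phospholipase C, rose by 1.21 ± 0.20 on the log2 scale (351, 355, 609 and 919 CPM; edgeR, adjusted p = 0.00185). Prkce, a protein kinase C, rose by 1.31 ± 0.20 (910, 637, 1843 and 1616 CPM; 0.000757), and Plcb4, a phospholipase C, by 0.67 ± 0.18 (0.0333). The genes that fell include Egr1 (135, 4.99, 2.40 and 1.30 CPM), Fos (334, 4.28, 3.84 and 3.90 CPM) and Dusp1 (75.9, 8.56, 4.32 and 4.55 CPM), the immediate early genes above. These 3 were high in the library labelled 5-month males alone. Without that library Egr1 and Fos had too few counts to be tested, and Dusp1 did not pass (-0.83, adjusted p = 0.691).

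Of 11 tested transcription factors of gonadotropes, 5 fell at labelled 22 months, with a median of -0.35. Pitx1, a homeodomain factor of pituitary cells, fell by 0.94 ± 0.18 on the log2 scale (472, 530, 233 and 243 CPM; edgeR, adjusted p = 0.00438). Gata2 fell by 0.91 ± 0.19 (191, 292, 109 and 121 CPM; 0.00725). Egr1, which mediates the GnRH response of Lhb, was among those that fell and is also on the GnRH list above. It was high in the library labelled 5-month males alone (188, 7, 5 and 2 UMIs). Nr5a1, which marks the lineage, stood at 96.7, 116, 111 and 130 CPM, with groups that overlapped.

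Of 12 tested genes for activin, inhibin and follistatin, 1 rose and 1 fell, with a median of -0.05, against 6.33% and 3.38% of all genes, a share that 1 of 12 does not set apart. Smad3, which carries the activin signal to the nucleus, rose by 1.57 ± 0.21 on the log2 scale (121, 110, 265 and 369 CPM; edgeR, adjusted p = 0.000249). Tgfbr3l, an inhibin co-receptor of gonadotropes, fell by 0.84 ± 0.19 (493, 494, 295 and 214 CPM; 0.0124). Of 6 tested genes of the steroid receptor list 2 rose and none fell (all genes, 6.33% and 3.38%), with a median of 0.29. Pgr, the progesterone receptor, rose by 2.54 ± 0.25 (59.4, 63.5, 220 and 474 CPM; 1.61e-05), and Esr1, the main estrogen receptor of these cells, by 0.73 ± 0.19 (1241, 1070, 1823 and 1685 CPM; 0.0271).

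In the list of sugar chains and secretory granules, 3 of 11 tested genes rose and 3 fell (all genes, 6.33% and 3.38%), with a median of 0.22. Chst8, a sulfotransferase that finishes the sugar chains of LH, rose by 2.74 ± 0.19 on the log2 scale (68.0, 94.8, 432 and 555 CPM; edgeR, adjusted p = 9.09e-07), and B4galnt4, which adds N-acetylgalactosamine to sugar chains, by 2.04 ± 0.54 (4.30, 2.85, 12 and 15.6 CPM; 0.0300). The B4galnt4 levels rest on only 6, 4, 25 and 24 UMIs. Among the granule proteins, Chga (chromogranin A) fell by 2.48 ± 0.22 (3256, 2304, 665 and 302 CPM; 6.97e-06) and Scg2 (secretogranin II) by 1.60 ± 0.20 (3777, 3831, 1109 and 1189 CPM; 0.000154). Of the processing enzymes, Pcsk1 fell by 0.90 ± 0.21 (0.0172) and Pam rose by 0.69 ± 0.20 (0.0453). Of the 19 list genes chosen by the naming rule for labelled age, 8 passed in DESeq2, 5 of 17 tested without the labelled sex term and 14 with called doublets kept. In DESeq2 the transcription factors had 1 that fell, and GnRH signalling 2 that rose and 0 that fell. Of the 19 genes, 0 passed without the library labelled 5-month males (12 of 17 tested were under 0.05 before adjustment), 4 without 5-month females and 12 without either library labelled 22-month, and the direction was the same wherever they could be fitted. By labelled sex, Pcsk2 (363, 199, 406 and 201 CPM; 0.0219) and Gnas (3143, 1380, 2422 and 1469 CPM; 0.0435) were lower in the libraries labelled females, by 0.90 ± 0.18 and 0.91 ± 0.21, as were Egr1 and Fos, and of these 4 only Egr1 and Fos passed in any fit without 1 library and 0 passed in DESeq2 (2, Gnas and Pcsk2, before adjustment).

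Of the other 10 classes with 30 nuclei or more in each library, thyrotrope-like nuclei had the highest Cga level in every library. It stood there at 8479 CPM (8303 to 8658), 8479 (8285 to 8677), 4810 (4691 to 4931) and 6875 (6752 to 6999), and in the remaining classes of this kind between 532 and 2968 CPM. Cycling and lymphocyte-like nuclei, with at most 21 per library, are not among them. The 18, 95, 310 and 87 nuclei of the clusters that could not be named stood at 3086 CPM of Cga (2618 to 3614), 10346 (10033 to 10666), 2254 (2191 to 2319) and 9459 (9154 to 9771), above the thyrotrope-like level in both libraries labelled females. In thyrotrope-like nuclei the Cga ratio of 22 over 5 months was 0.567 (0.549 to 0.586) for the libraries labelled males and 0.811 (0.787 to 0.835) for those labelled females. Tshb, its partner in this class, stood at 5140, 4872, 1427 and 1667 CPM. Lhb, with 2 to 6 UMIs per library, and Gnrhr, with 4 to 17, stood at 1.92 to 4.70 and 3.46 to 13.2 CPM in thyrotrope-like nuclei. Some high values in other classes rested on single nuclei. In corticotrope-like nuclei of the library labelled 22-month females, 1 nucleus held 1073 of 1484 Cga UMIs and 6 of 7 Lhb UMIs were in 1 nucleus. In endothelial-like nuclei of the library labelled 22-month males, 14 of 19 Gnrhr UMIs were in 1 nucleus.

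Genes with the most similar pattern were ranked by Pearson correlation of log2(CPM + 1) over the 44 sums of 11 classes and 4 libraries, among 14210 genes that reached 20 CPM. These sums share libraries and depth, so the coefficients are a description. A high coefficient can come from differences between classes and need not mean a like difference between libraries. Drd3, first for Cga, overlapped between labelled ages in gonadotrope-like nuclei (70.2, 97.0, 82.6 and 94.3 CPM), while Tgfbr3l, first for Fshb, fell. Some genes reached 20 CPM only in gonadotrope-like nuclei, such as Speer4e (at most 27.8 CPM there and 9.58 elsewhere). Nr5a1 and Tgfbr3l, which rank high below, were among the markers that named the gonadotrope-like class, so their rank is partly built in. For Cga the highest were Drd3 (0.902), a dopamine receptor, Platr9 (0.900), Foxl2os (0.884), Nr5a1 (0.857) and Lhx4 (0.855). For Gnrhr they were Gm33474 (0.913), Dgkk (0.872), a diacylglycerol kinase, Nr5a1 (0.860), Gm49455 (0.854) and Nr5a1os (0.851). Fshb was most like Tgfbr3l (0.858), Cfap73 (0.832), 4930556N09Rik (0.831), Fa2h (0.830) and E130111B04Rik (0.826). The coefficients of Lhb, whose counts are low, were smaller: Speer4e (0.756), Dnah10 (0.741), 4930556N09Rik (0.734), Fkbp6 (0.726) and Dag1 (0.723). Between the 4 genes themselves they ran from 0.609 (Lhb and Cga) to 0.772 (Cga and Gnrhr). Foxl2os and Nr5a1os are antisense to Foxl2 and Nr5a1, and reads of such pairs may be shared.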

How the data were processed

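The values are raw counts of UMIs, deposited as filtered gene-by-barcode matrices made by Cell Ranger 7.0.1, per the file headers, on build mm10, per the submitters' processing notes. The sources used here do not state whether intronic reads were counted. Barcodes with under 500 genes, with over 5% mitochondrial counts, or scored as doublets by Scrublet (threshold 0.135, the median of the automatic ones, chosen after they were seen; 10.5% to 14.2% removed) were left out. Nuclei were clustered in scanpy 1.11.5 (3000 variable genes, 30 components, 15 neighbours, Leiden resolution 1) without correction between libraries, and clusters were named by marker score, whose minimum was set after the clusters were seen. Counts were summed by class and library and tested with edgeR 4.0.16 (quasi-likelihood, TMM, filterByExpr, Benjamini-Hochberg over all genes tested, threshold 0.05). With 1 library per group the fit has 1 residual degree of freedom, the departure of the libraries from additive terms for labelled age and sex. A p-value rests on that departure and on the prior shared across genes. It does not measure the spread between pools of a group, which is not known. The SE is the fold over the root of the F statistic. DESeq2 1.42.0 was an alternative. The script was tested on simulated data. Alternatives were DESeq2's size factors, no filter, no second term, doublets kept, Leiden resolution 2, hormone genes among those clustered, each library left out, and other depths and detection limits. Thinning drew UMIs without replacement.

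The members and lists were chosen with earlier results of these data known. Named genes are the 4 members, the 5 genes most alike to each, and list genes that pass (all if up to 12, otherwise the 3 with the lowest p per list and direction). With 1 library left out, the fit has 1 term and 1 residual degree of freedom, and the lone library is assumed to vary like the others. The result of 1 gene that meets the rule for named genes is not reported here.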

Additional observations from a re-analysis of the deposited data

Results flagged for a closer look

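The Cga ratio lay on opposite sides of 1 between the labelled ages in the libraries labelled males and females in 2 classes, a difference that was not tested. In somatotrope-like nuclei the ratio of CPM at 22 over 5 months was 1.28 (95% exact binomial interval 1.25 to 1.31) for the libraries labelled males and 0.880 (0.855 to 0.905) for those labelled females. In endothelial-like nuclei it was 1.22 (1.03 to 1.44) and 0.865 (0.761 to 0.984). In both classes Cga was below its level in thyrotrope-like nuclei of the same library, and 148 of the 691 endothelial-like and 249 of the 11322 somatotrope-like UMIs of the library labelled 22-month males were in 1 nucleus each. Without that nucleus of the library labelled 22-month males, an alternative chosen after seeing the data, the ratio for males was 1.26 (1.22 to 1.29) in somatotrope-like nuclei and 1.01 (0.856 to 1.2) in endothelial-like nuclei, so in the latter class it could no longer be told from 1. Without the nucleus of most Cga UMIs in each library the endothelial-like ratios were 1.05 (0.884 to 1.25) and 0.776 (0.677 to 0.889).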

How the results depend on the processing

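No paired analysis was possible because the labels give no replicate numbers and each group is 1 library. By labelled age, 1261 genes passed, against 345 in DESeq2, 267 without the labelled sex term, 789 with called doublets kept, and 74 to 921 when 1 library was left out. Without the sex term the folds were -1.88 for Lhb, -0.87 for Cga and 0.73 for Gnrhr, none past the threshold (adjusted p = 0.0691, 0.273 and 0.164, edgeR). With doublets kept Cga (-0.85) and Gnrhr (0.71) did not pass, nor did Gnrhr in DESeq2 (0.76). Leaving out 1 library gave -2.43 to -1.40 for Lhb, -2.83 to -1.74 for Fshb, -0.99 to -0.74 for Cga and 0.55 to 0.94 for Gnrhr. By labelled sex, 226 genes passed, against 384 with DESeq2's size factors, 46 in DESeq2, 538 with no filter, 48 with doublets kept, 103 at Leiden resolution 2, 440 with hormone genes among the clustered genes, 0 without the labelled age term (349 at an unadjusted p under 0.05) and 0 to 6 without 1 library (341 to 670). Lhb passed with DESeq2's size factors (0.86), no filter (0.84) and hormone genes clustered (0.87), and Fshb with no filter (0.57). Leaving out 1 library gave -0.29 to 2.15 for Lhb, -0.90 to 2.26 for Fshb, -0.43 to 0.63 for Cga and -0.70 to 0.23 for Gnrhr, so their signs reversed: Lhb was -0.29 and Fshb -0.90, Cga -0.38 and Gnrhr 0.23 without 5-month females, and Fshb was -0.52, Cga -0.43 and Gnrhr 0.16 without 22-month males. These fits had no labelled age term, and 1 side was a single library of 1 labelled age. The difference by labelled sex is therefore mixed with that by labelled age in them. The part of each in these changes was not tested. Co-detection was 26.4%, 45.7%, 6.98% and 18% without thinning and 1.34%, 4.58%, 0% and 0% from 2 UMIs. Thinned to 1000 UMIs it was 6.37%, 12%, 0% and 2.33%. In each of these settings the interval of the library labelled 5-month males overlapped that of 22-month females. The gonadotrope-like share of the library labelled 22-month males was 3.48% with doublets kept. The ratio of Fshb to Lhb stayed within its counting interval in all 12 alternatives. Depth limits Lhb most: 36 to 176 UMIs stand behind each value.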
